A study of Mus musculus with 11 samples.

Results

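Expression of 32 neural, glial and Schwann cell genes was followed in mouse embryonic fibroblasts (MEFs), connective tissue cells grown from embryos. The genes were chosen by the cell type each is known to mark, with earlier results of these data already known. No threshold on the values was applied, and every row of the count table carrying one of the 32 names was taken. All 32 were present, each on 1 of 53924 named lines. They comprised 7 Schwann cell and neural crest genes, 6 genes of neural progenitors and radial glia, 5 astrocyte genes, 2 genes of the oligodendrocyte lineage and 12 neuron genes. Because the list was drawn up in this way, the values are given as a description, and the gene-wise p-values, which come from a fit over all genes, are no independent support for the list.

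The RNA-seq libraries came from embryos of day 13.5, and the cells were collected at passage 2. The groups were Trex1p212fs (hereafter p212fs, 2 libraries), Trex1D18N (D18N, 3 libraries), Trex1-/- (3 libraries) and WT (3 libraries). TREX1 is an exonuclease that removes DNA from the cytosol. By its name D18N is a single residue exchange, at a position known to bind the catalytic metal, and p212fs is a frameshift. The labels gave neither the mouse strain nor the parts of the embryo removed before culture, their growth protocol named primary and spontaneously immortalized MEFs side by side, and they did not state whether each library had an embryo of its own. P-values therefore measure the spread between these libraries.

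Library totals ran from 16073955 to 21765536 counts. The targeted gene could not check the labels, since Trex1 was listed at 0 counts in every one of the 11 libraries. The fibroblast label was borne out by Col1a1, a collagen chain, with group means of 10951 CPM (the share of a library's named-gene counts, scaled to 1000000) in p212fs, 29656 CPM in D18N, 23473 CPM in Trex1-/- and 22709 CPM in WT. The 10 fibroblast markers together summed to between 25872 and 29926 CPM in p212fs, 69258 and 81383 CPM in D18N, 53245 and 62422 CPM in Trex1-/- and 51536 and 57022 CPM in WT. By Xist, the RNA of the inactive X chromosome, and the Y-linked Ddx3y, D18N replicate 1, Trex1-/- replicate 2 and all 3 WT libraries had a female pattern, and the other 6 libraries a male one. Embryo sex and genotype therefore cannot be told apart between p212fs and WT, and only in part elsewhere.

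Schwann cells, the glia of peripheral nerves, arise from the neural crest, a migratory population that leaves the embryonic neural tube. SOX10 and FOXD3 are transcription factors of the crest and of its glial descendants, and ERBB3 receives the neuregulin signal on which Schwann cell precursors depend. Astrocytes and oligodendrocytes arise in the neural tube from radial glia, progenitors that share genes such as Sox2, Nes, Fabp7 and Slc1a3. Several of these genes are also active outside the nervous system: Nes and Erbb3 are known from developing muscle, and Ngfr from several mesenchymal cells.

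Together the 32 genes took up little of each library: 343 and 385 CPM in p212fs, 527, 325 and 358 CPM in D18N, 726, 688 and 739 CPM in Trex1-/-, and 922, 772 and 704 CPM in WT. All p212fs and D18N libraries lay under all Trex1-/- and WT libraries in this sum. Per kilobase of exon, averaged over the 11 libraries, the levels ran from 37.8 CPM per kb for Tubb3, a neuronal tubulin, through 29.4 for the neurotrophin receptor gene Ngfr, 10.8 for Sox10 and 6.04 for Gfap, to 0.0319 for Snap25, a protein of synaptic vesicle release. Rbfox3, a marker of mature neurons, was near 0, with group means between 0.0189 and 0.273 CPM over the 4 genotypes. In bulk RNA, fewer cells of a type and less RNA per cell cannot be told apart, which holds for every result that follows.

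Of the 32 genes, 31 passed the filter on low counts; the neuronal RNA-binding protein gene Elavl3, with 1 to 26 counts per library, did not. Against WT, edgeR's quasi-likelihood test at an adjusted p under 0.05 called 12 of 31 lower and 0 higher in p212fs, where it called 8.95% of all 16990 genes lower and 8.13% higher. In D18N it called 15 lower and 1 higher, against 13.2% and 12.2% of all genes. The median log2 fold change over the 31 genes was -1.27 in p212fs and -1.58 in D18N, against -0.02 and 0.04 over all genes. Without p212fs replicate 1 or 2 the p212fs count was 5 or 4, and without D18N replicate 2 the D18N count was 9, while without the other libraries the counts ran from 12 to 15 for p212fs and 12 to 18 for D18N. The 2 comparisons share the WT libraries. Calls given below are those of edgeR unless DESeq2 is named.

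**Figure D1:**
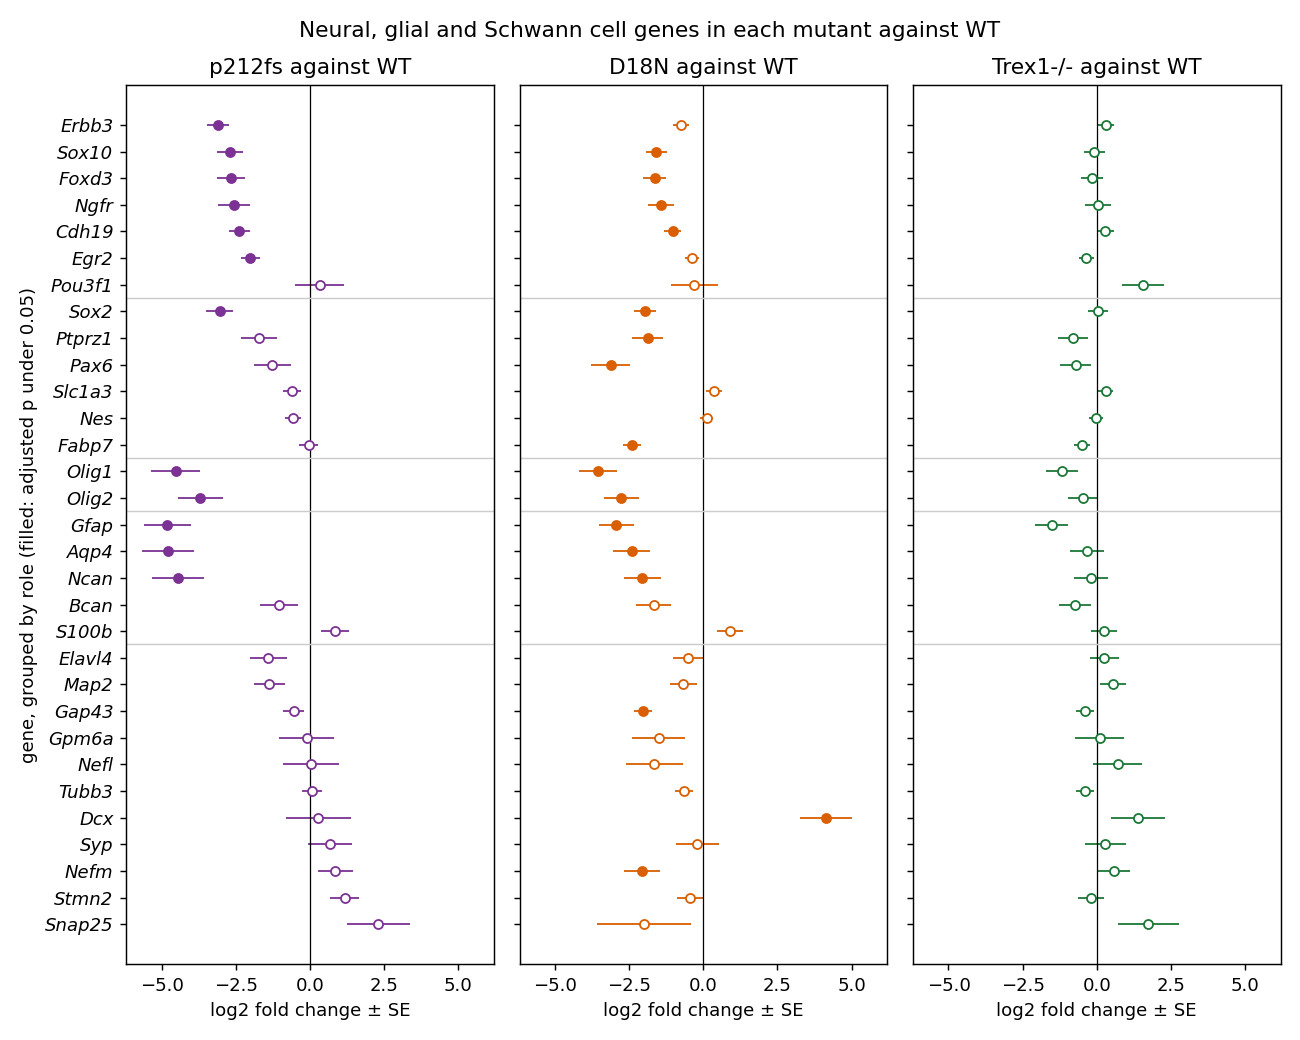
Log2 fold change with its approximate SE of the 31 tested genes in p212fs, D18N and Trex1-/- libraries, each against WT, grouped by role from Schwann cell and neural crest (top) to neuron (bottom). Filled symbols had an edgeR adjusted p under 0.05: 12 for p212fs, 16 for D18N and 0 for Trex1-/-.

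Sox10, Foxd3, Ngfr, Cdh19 and Erbb3, of the 7 Schwann cell and neural crest genes, averaged lowest in p212fs, next in D18N and highest in Trex1-/- and WT. Egr2 was low in p212fs, and Pou3f1 followed no such order. Summed over the 7 genes, they had 49.9 and 50.1 CPM in p212fs, 194, 70.5 and 88.1 CPM in D18N, 335, 307 and 277 CPM in Trex1-/-, and 411, 261 and 198 CPM in WT. Against WT, 6 of the 7 fell in p212fs and 4 in D18N, where 8.95% and 13.2% of all genes did. The stretches upstream of Foxd3 and Ngfr, which kept a near-constant ratio to each other in every library, and of Sox2, which fell with them, are shown from RefSeq (GRCm38.p6), from 250 to 51 bases before each start, as the RefSeq table gives them, with any SOX core motif (ACAAAG or ACAATG) in capitals.
Foxd3, chr4:99656049-99656248, plus strand: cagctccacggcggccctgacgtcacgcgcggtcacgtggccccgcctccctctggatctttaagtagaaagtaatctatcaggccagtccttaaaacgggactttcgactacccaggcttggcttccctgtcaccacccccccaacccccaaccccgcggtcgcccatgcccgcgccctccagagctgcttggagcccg
Ngfr, chr11:95587749-95587948, minus strand: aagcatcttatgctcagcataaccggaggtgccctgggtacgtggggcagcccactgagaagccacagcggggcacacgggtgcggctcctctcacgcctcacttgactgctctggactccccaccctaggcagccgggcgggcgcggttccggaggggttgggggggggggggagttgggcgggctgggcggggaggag
Sox2, chr3:34649745-34649944, plus strand: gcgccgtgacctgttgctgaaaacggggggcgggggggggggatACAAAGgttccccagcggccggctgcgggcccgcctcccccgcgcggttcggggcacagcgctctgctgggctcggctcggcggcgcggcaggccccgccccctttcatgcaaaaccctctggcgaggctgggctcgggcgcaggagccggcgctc
None of these 200-base windows lies in an annotated exon; that of Sox2 lies inside the non-coding gene Sox2ot. The bases after the start matched a GENCODE M21 transcript for Foxd3 and Ngfr and not for Sox2, so the reading direction of the Sox2 window was not checked. Their GC content was 64.5% for Foxd3, 70% for Ngfr and 76% for Sox2, against a median of 51.5% over 32851 RefSeq windows of this length. On either strand, a SOX core was present in 21.2% of all windows, and the E-box CAGCTG, bound by neurogenic and myogenic factors, in 10.3%. The shown windows held 1 SOX core, upstream of Sox2, and no such E-box.

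Sox10, the crest and glial transcription factor, had 7.51 and 8.71 CPM in p212fs, 26.7, 10.2 and 13.6 CPM in D18N, 48.4, 51.6 and 44.7 CPM in Trex1-/-, and 75.1, 40.7 and 34.9 CPM in WT. The p212fs and D18N libraries lay under every Trex1-/- and WT library. The log2 fold change against WT was -2.70 ± 0.45 in p212fs (edgeR adjusted p = 0.0043) and -1.58 ± 0.36 in D18N (edgeR adjusted p = 0.013). Foxd3, a factor of the early crest, had 5.15 and 4.6 CPM in p212fs, 15.7, 5.70 and 6.97 CPM in D18N, 30.7, 24.8 and 24.6 CPM in Trex1-/-, and 44.9, 24.0 and 19.2 CPM in WT, with log2 fold changes of -2.66 ± 0.49 and -1.64 ± 0.39 against WT (edgeR adjusted p = 0.0064 for p212fs and 0.016 for D18N). Its order over the libraries was close to that of Sox10, with D18N replicate 1 the highest of its genotype for both genes.

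Ngfr, which encodes the low-affinity neurotrophin receptor, was the most abundant of the 7, with 26.0 and 26.3 CPM in p212fs, 98.3, 28.6 and 37.4 CPM in D18N, 173, 151 and 137 CPM in Trex1-/-, and 217, 124 and 97.4 CPM in WT. D18N replicate 1 just overlapped the lowest WT library. The log2 fold change against WT was -2.56 ± 0.54 in p212fs (edgeR adjusted p = 0.013) and -1.43 ± 0.44 in D18N (edgeR adjusted p = 0.040). Cdh19, a cadherin of the Schwann lineage, had 4.54 and 4.87 CPM in p212fs, 17.0, 7.97 and 9.37 CPM in D18N, 35.8, 25.5 and 25.3 CPM in Trex1-/-, and 25.3, 29.5 and 15.6 CPM in WT. It fell against WT in p212fs (-2.38 ± 0.36, edgeR adjusted p = 0.0024) and in D18N (-1.03 ± 0.29, edgeR adjusted p = 0.026).

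Erbb3, the neuregulin receptor gene, had 4.31 and 4.11 CPM in p212fs, 31.0, 13.5 and 16.6 CPM in D18N, 41.3, 48.3 and 40.7 CPM in Trex1-/-, and 42.1, 35.7 and 25.9 CPM in WT. In p212fs the log2 fold change against WT was -3.10 ± 0.36 (edgeR adjusted p = 6.8e-04), the smallest adjusted p of the 31 genes in that comparison. In D18N it was -0.76 ± 0.28 (edgeR adjusted p = 0.063, DESeq2 adjusted p = 0.0316), and -1.08 ± 0.28 against Trex1-/- (edgeR adjusted p = 0.041); D18N replicate 1 lay within the WT range. Egr2, a factor that switches on myelin genes, had 1.79 and 1.03 CPM in p212fs, 4.71, 4.21 and 3.57 CPM in D18N, 4.6, 4.61 and 3.70 CPM in Trex1-/-, and 5.64, 6.23 and 4.55 CPM in WT, and was called in p212fs (-2.01 ± 0.31, edgeR adjusted p = 0.0025) and not in D18N (-0.38 ± 0.25, edgeR adjusted p = 0.27). Pou3f1, a factor of promyelinating Schwann cells, had 2 to 32 counts per library and was called in no comparison.

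Sox2, a transcription factor of neural progenitors that is also active in Schwann cell precursors, followed the crest genes. It had 2.24 and 1.78 CPM in p212fs, 6.58, 3.10 and 2.57 CPM in D18N, 18.2, 14.6 and 17.2 CPM in Trex1-/-, and 22.8, 14.5 and 10.3 CPM in WT. The log2 fold change against WT was -3.04 ± 0.46 in p212fs (edgeR adjusted p = 0.0023) and -1.96 ± 0.36 in D18N (edgeR adjusted p = 0.0051), and both calls held in all 16 alternative fits, as did those of Erbb3, Cdh19 and Egr2 in p212fs. The p212fs calls of Sox10, Foxd3 and Ngfr ended without p212fs replicate 1 or without replicate 2, and the last 2 also with embryo sex as a term, with edgeR adjusted p up to 0.0614, 0.0768 and 0.110 over the alternatives. In D18N the call of Sox10 ended with embryo sex as a term (edgeR adjusted p = 0.0518), and so did those of Foxd3, Cdh19 and Ngfr. The D18N calls of Foxd3, Cdh19 and Ngfr also ended without D18N replicate 2 or WT replicate 1. Those of Foxd3 and Ngfr further ended with no filter on low counts, those of Cdh19 and Ngfr without D18N replicate 3, that of Cdh19 without WT replicate 2, and that of Ngfr without p212fs replicate 1 or 2. Over the alternatives the edgeR adjusted p reached 0.0652 for Foxd3, 0.117 for Cdh19 and 0.156 for Ngfr.

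**Figure D2:**
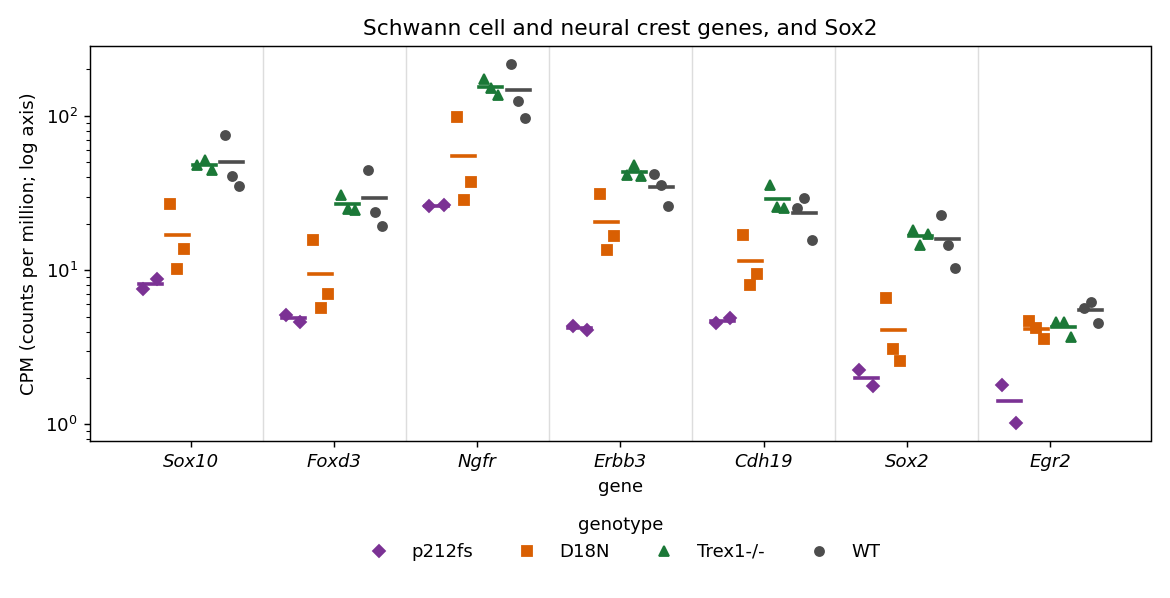
CPM on a log axis of 6 Schwann cell and neural crest genes and Sox2 in each of the 11 libraries, by genotype; horizontal bars are group means. For Sox10, Foxd3, Cdh19, Sox2 and Erbb3 the 2 p212fs libraries lie under all 9 others, and D18N replicate 1 is the highest D18N library for every gene plotted.

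Sox10 levels by sex pattern are given because WT had no male-pattern and p212fs no female-pattern library. Among the male-pattern libraries Sox10 had 7.51 and 8.71 CPM in p212fs, 10.2 and 13.6 CPM in D18N replicates 2 and 3, and 48.4 and 44.7 CPM in Trex1-/- replicates 1 and 3. Among the female-pattern libraries it had 26.7 CPM in D18N replicate 1, 51.6 CPM in Trex1-/- replicate 2, and 75.1, 40.7 and 34.9 CPM in WT. The female-pattern D18N library was the highest of its genotype for 6 of these 7 genes, all but Pou3f1; as the only female-pattern D18N library it cannot be told apart from an effect of sex.

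Ratios of reads within a library, from which depth cancels, showed which of these genes kept step. Per 100 Sox10 reads, Foxd3 had between 48.0 and 68.7 reads in the 11 libraries, a 1.43-fold range, while Sox10 itself spanned 10.0-fold in CPM. Ngfr had between 275 and 368 reads per 100 Sox10 reads, a 1.34-fold range. Sox2 ranged 2.04-fold, Cdh19 2.32-fold, Erbb3 2.81-fold and Egr2, which had fewer reads, 5.50-fold (between 7.52 and 41.3 reads). Egr2 had 17.6, 41.3 and 26.2 reads in D18N, above all Trex1-/- (8.27 to 9.51) and WT (7.52 to 15.3) libraries. The p212fs libraries, at 23.9 and 11.8 reads, overlapped D18N and WT. Counting intervals of D18N replicates 2 and 3 (31.2 to 54.2 and 19.6 to 34.7 reads) lay above all those of Trex1-/- and WT. That of D18N replicate 1 (13.8 to 22.3 reads) overlapped WT replicates 2 and 3.

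Erbb3 set D18N apart in its ratio to Sox10, while WT overlapped both p212fs and Trex1-/-. Per 100 Sox10 reads it had 57.5 and 47.2 reads in p212fs, 116, 133 and 122 reads in D18N, 85.4, 93.5 and 91.0 reads in Trex1-/-, and 56.1, 87.6 and 74.1 reads in WT. The 3 D18N libraries lay above all others and the p212fs libraries at the low end, beside WT replicate 1. Skeletal muscle markers were high in D18N as well: 12 of them together had 727, 290 and 313 CPM in D18N replicates 1, 2 and 3. The sums were 10.7 to 11.9 CPM in p212fs, 4.61 to 7.17 CPM in Trex1-/- and 4.79 to 5.03 CPM in WT. Of these markers, 11 of the 11 tested rose in D18N against WT, where 12.2% of all genes did. Within D18N, replicate 1 had the most muscle signal, the lowest ratio and the most Erbb3 (31.0 CPM, against 13.5 and 16.6 CPM). It also had the most Sox10 (26.7 CPM, against 10.2 and 13.6 CPM). The 95% counting intervals of the 3 D18N ratios overlapped, at 102 to 132, 109 to 161 and 102 to 145 reads. The part of muscle cells in the Erbb3 ratio was not tested.

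**Figure D3:**
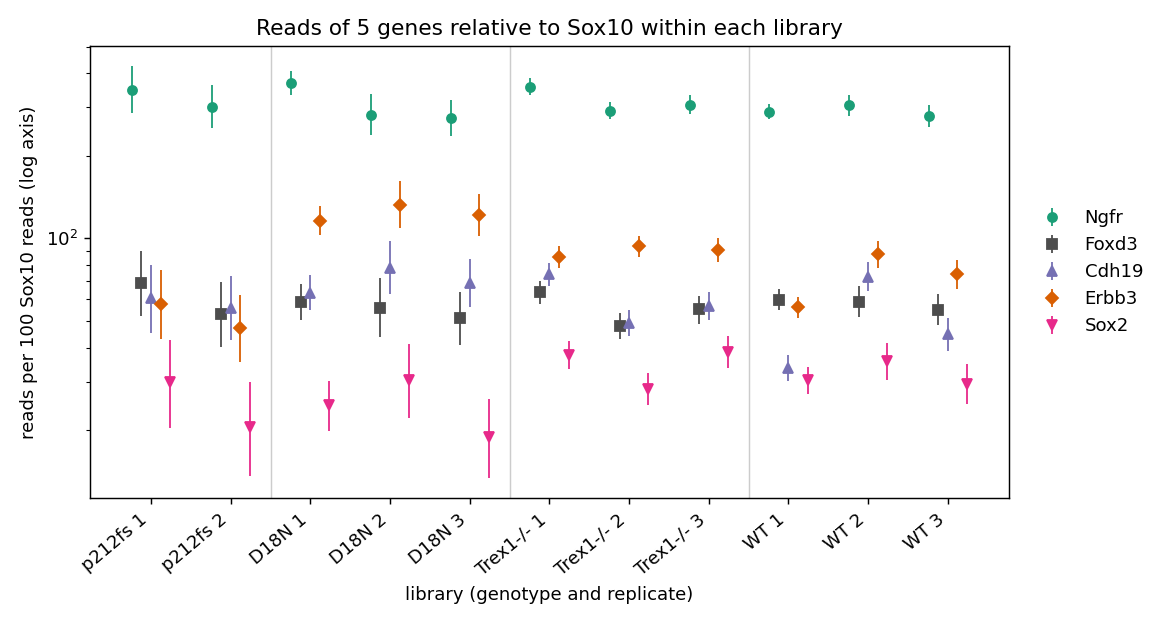
Reads of Ngfr, Foxd3, Cdh19, Erbb3 and Sox2 per 100 reads of Sox10 in each library, on a log axis; bars are exact binomial 95% intervals, which cover counting error only. Ngfr and Foxd3 stay within 1.34-fold and 1.43-fold ranges across all genotypes, and Erbb3 is highest in the 3 D18N libraries.

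Of the 5 astrocyte genes, Gfap, Aqp4 and Ncan were also lowest in p212fs, with a wide spread between libraries of every other genotype. Gfap encodes the intermediate filament of astrocytes and of non-myelinating Schwann cells. It had 1.85 and 2.70 CPM in p212fs, 14.2, 7.14 and 2.73 CPM in D18N, 20.9, 11 and 33.2 CPM in Trex1-/-, and 33.1, 72.8 and 80.3 CPM in WT. The p212fs libraries lay under all others, and WT replicate 1 lay beside Trex1-/- replicate 3. The log2 fold change against WT was -4.81 ± 0.79 in p212fs (edgeR adjusted p = 0.0049) and -2.93 ± 0.59 in D18N (edgeR adjusted p = 0.0092). The stretch from 250 to 51 bases before the RefSeq start of Gfap is shown because Gfap had the smallest adjusted p of the 31 genes between Trex1-/- and WT.
Gfap, chr11:102897251-102897450, minus strand: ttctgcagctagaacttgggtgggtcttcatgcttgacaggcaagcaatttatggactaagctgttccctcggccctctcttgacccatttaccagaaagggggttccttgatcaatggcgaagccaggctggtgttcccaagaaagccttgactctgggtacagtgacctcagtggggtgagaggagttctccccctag
This window of GRCm38.p6 lies, outside any exon, within a longer Gfap gene model and the opposite-strand gene Gm26668 of GENCODE M21. It holds neither a SOX core nor the E-box, so that no capitals stand in it, and has a GC content of 53%.

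Aqp4, the water channel of astrocyte endfeet, had 0.336 and 0.811 CPM in p212fs, 5.39, 2.05 and 1.17 CPM in D18N, 13.5, 7.42 and 16.4 CPM in Trex1-/-, and 5.70, 23.7 and 17.5 CPM in WT. It fell against WT in p212fs (-4.79 ± 0.86, edgeR adjusted p = 0.0064) and in D18N (-2.42 ± 0.61, edgeR adjusted p = 0.019). WT replicate 1 lay near D18N replicate 1, far under the other WT libraries. Ncan, a proteoglycan of brain matrix, had 5 and 7 counts in p212fs (0.280 and 0.378 CPM), against 3.26, 8.72 and 9.16 CPM in WT, and fell in p212fs (-4.44 ± 0.88, edgeR adjusted p = 0.0085) and in D18N (-2.06 ± 0.62, edgeR adjusted p = 0.034).

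S100b and Bcan, the other astrocyte genes, were called by edgeR in no comparison. S100b, a calcium-binding protein of astrocytes, Schwann cells and cartilage, ran against the rest, with 3.14 and 2.38 CPM in p212fs, 4.08, 2.49 and 1.62 CPM in D18N, 1.52, 2.66 and 1.05 CPM in Trex1-/-, and 1.83, 1.18 and 1.36 CPM in WT (log2 fold change 0.85 ± 0.47 in p212fs and 0.90 ± 0.43 in D18N against WT). Bcan, a brain proteoglycan, had 6 to 59 counts per library and was called lower in D18N against WT by DESeq2 (adjusted p = 0.0273) and not by edgeR (adjusted p = 0.0563).

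Olig1 and Olig2, paired transcription factors of oligodendrocyte precursors, are neighbours on chromosome 16 and were lower in both p212fs and D18N. Olig1 had 0.504 and 0.108 CPM in p212fs, 1.13, 0.388 and 0.223 CPM in D18N, 1.52, 2.51 and 5.25 CPM in Trex1-/-, and 4.92, 6.35 and 9.49 CPM in WT. Every p212fs and D18N library lay under every Trex1-/- and WT library, with log2 fold changes against WT of -4.53 ± 0.83 in p212fs (edgeR adjusted p = 0.0056) and -3.55 ± 0.64 in D18N (edgeR adjusted p = 0.0047). Olig2 rested on few reads, with 1 and 3 counts in p212fs, 6, 3 and 2 in D18N, 10, 20 and 30 in Trex1-/-, and 22, 23 and 31 in WT, and fell in both (-3.69 ± 0.75, edgeR adjusted p = 0.0088 in p212fs; -2.76 ± 0.59, edgeR adjusted p = 0.0087 in D18N).

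The p212fs calls of Gfap, Aqp4, Ncan and Olig2 ended without p212fs replicate 1 and without replicate 2 (edgeR adjusted p up to 0.0722, 0.0833, 0.100 and 0.103), that of Olig1 without p212fs replicate 2 (0.0720), and that of Olig2 also with embryo sex as a term. In D18N the calls of Gfap, Olig1 and Olig2 held in all 16 alternatives. That of Aqp4 ended without D18N replicate 2 or WT replicate 3, with embryo sex as a term and with no filter on low counts (edgeR adjusted p up to 0.0761). That of Ncan ended under these, with the replicate block and without p212fs replicate 1 or 2, D18N replicate 3 or WT replicate 2 (up to 0.0994).

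**Figure D4:**
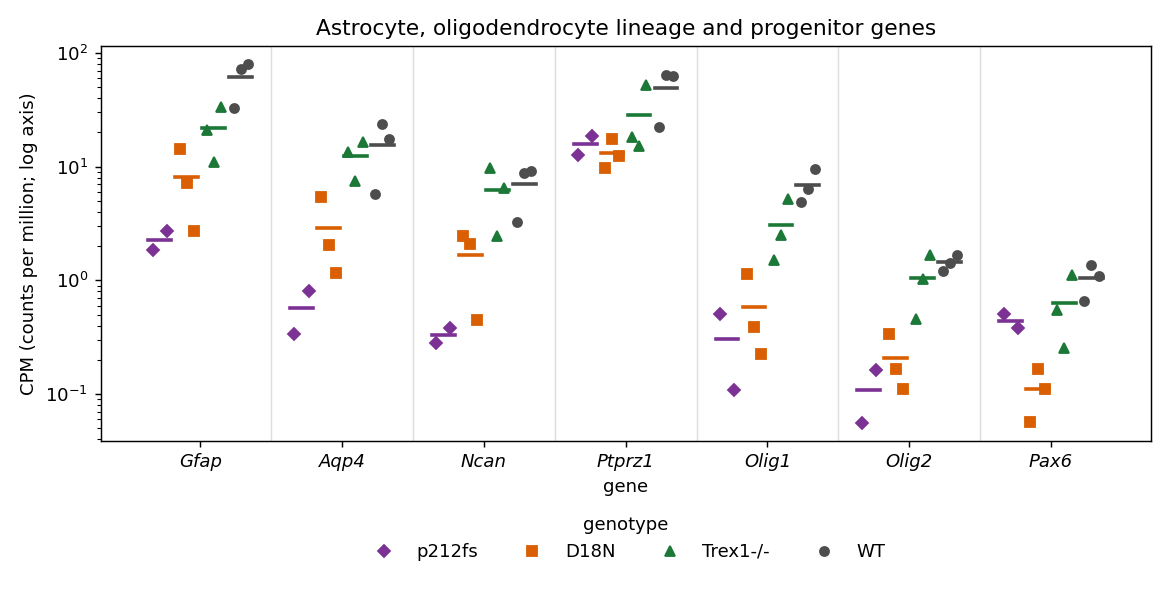
CPM on a log axis of 3 astrocyte genes, the progenitor genes Ptprz1 and Pax6, and Olig1 and Olig2 in each library, by genotype; horizontal bars are group means. For Gfap, Aqp4 and Ncan the p212fs libraries lie under all others, and WT replicate 1 is the lowest WT library for each of the 7 genes.

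The other progenitor genes separated the genotypes in different ways. Ptprz1, a receptor phosphatase of radial glia, had 12.7 and 18.7 CPM in p212fs, 9.70, 17.6 and 12.5 CPM in D18N, 18.2, 15.3 and 52.6 CPM in Trex1-/-, and 22.5, 64.4 and 62.3 CPM in WT, and fell in D18N (-1.88 ± 0.53, edgeR adjusted p = 0.031). In p212fs it was at -1.71 ± 0.61 against WT, a call in DESeq2 (adjusted p = 0.0074) and not in edgeR (adjusted p = 0.082). With no filter on low counts, or without D18N replicate 1, 2 or 3 or WT replicate 2 or 3, the D18N call ended (edgeR adjusted p up to 0.0953). Pax6, a factor of cortical and eye progenitors, had 1, 3 and 2 counts in D18N against 12, 22 and 20 in WT, with 9 and 7 in p212fs, and fell in D18N (-3.12 ± 0.65, edgeR adjusted p = 0.0082). Nes, the progenitor intermediate filament, was the member with the most reads and was called by edgeR in no comparison (81.6 and 91.1 CPM in p212fs, 169, 108 and 121 CPM in D18N, 93.3, 151 and 119 CPM in Trex1-/-, 151, 106 and 110 CPM in WT). DESeq2 called Nes lower in p212fs against D18N (adjusted p = 0.0318; edgeR adjusted p = 0.0540). Slc1a3, the glutamate transporter of radial glia, was not called against WT, with 13.4 and 13.7 CPM in p212fs, 29.2, 25.9 and 20.2 CPM in D18N, and 10.5, 27.6 and 21.8 CPM in WT.

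Fabp7, the fatty acid binding protein of radial glia and of Schwann cell precursors, was low in D18N and not in p212fs. It had 16.4 and 12.4 CPM in p212fs, 3.52, 2.38 and 2.06 CPM in D18N, 11.3, 6.96 and 12.3 CPM in Trex1-/-, and 9.35, 16.1 and 17.6 CPM in WT. No D18N library overlapped any other library. The log2 fold change against WT was -2.41 ± 0.30 in D18N (edgeR adjusted p = 6.6e-04) and -0.04 ± 0.31 in p212fs (edgeR adjusted p = 0.94), and between p212fs and D18N it was 2.37 ± 0.32 (edgeR adjusted p = 5.6e-04). Its D18N calls held in all 16 alternatives. As the gene that set p212fs and D18N apart with the smallest adjusted p of the 31, its upstream stretch (250 to 51 bases before the RefSeq start, GRCm38.p6) is shown; it has a GC content of 57%, overlaps no exon and holds neither motif.
Fabp7, chr10:57784673-57784872, plus strand: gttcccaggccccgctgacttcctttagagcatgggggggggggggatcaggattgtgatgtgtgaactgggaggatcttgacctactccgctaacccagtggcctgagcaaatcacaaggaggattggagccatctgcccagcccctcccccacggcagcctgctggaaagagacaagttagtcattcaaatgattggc

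Summed over the 12 neuron genes, the D18N libraries had 82.8 to 105 CPM, under all other libraries. The sums were 159 to 190 CPM in p212fs, 142 to 173 CPM in Trex1-/- and 161 to 243 CPM in WT. Tubb3 and Gap43 made up most of each sum. The median log2 fold change of the 11 tested neuron genes against WT was -0.68 in D18N and 0.06 in p212fs. Few were called one by one. Against WT, edgeR called 0 of 11 tested in p212fs, where it called 8.95% of all genes lower and 8.13% higher. In D18N it called 2 lower and 1 higher, near the 13.2% and 12.2% of all genes. Gap43, a growth cone protein that Schwann cell precursors also make, had 45.8 and 69.6 CPM in p212fs, 28.9, 15.3 and 14.9 CPM in D18N, 62.9, 57.9 and 66.9 CPM in Trex1-/-, and 114, 69.6 and 57.7 CPM in WT. The D18N libraries lay under all others (-2.04 ± 0.32 against WT, edgeR adjusted p = 0.0029), and the call held in all 16 alternatives. Nefm, the medium neurofilament, had 6.89 and 5.46 CPM in p212fs, 1.02, 0.554 and 0.725 CPM in D18N, 10.8, 2.15 and 2.15 CPM in Trex1-/-, and 4.04, 3.05 and 2.71 CPM in WT, and fell in D18N (-2.08 ± 0.61, edgeR adjusted p = 0.031). That call ended without D18N replicate 1, 2 or 3 or WT replicate 1 or 3, with embryo sex as a term and with no filter on low counts (edgeR adjusted p up to 0.106). Of the exonic bases of Nefm, 19.2% overlap Nefl on the opposite strand, so without a stated strand setting their reads cannot be told apart.

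Dcx, which stabilises microtubules in migrating young neurons, was the single member that edgeR called higher in D18N against WT. It had 0.280 and 0.487 CPM in p212fs, 9.81, 4.04 and 2.29 CPM in D18N, 1.89, 0.154 and 0.386 CPM in Trex1-/-, and 0.166, 0.187 and 0.542 CPM in WT, from 173, 73 and 41 counts in D18N and 3, 3 and 10 counts in WT. The D18N libraries lay above all others, Trex1-/- replicate 1 coming next. The log2 fold change against WT was 4.13 ± 0.87 in D18N (edgeR adjusted p = 0.0091) and 0.28 ± 1.11 in p212fs (edgeR adjusted p = 0.88). Between D18N and Trex1-/- it was 2.73 ± 0.77, not called by edgeR (adjusted p = 0.0587) and called by DESeq2 (adjusted p = 0.0064). D18N replicate 1, the library highest in Dcx, was also the highest in the 12 muscle markers, with 727 CPM against 290 and 313 CPM in replicates 2 and 3; the part of muscle cells in the Dcx level was not tested.

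The remaining neuron genes were not called against WT by edgeR. Tubb3 had 85.7 and 95 CPM in p212fs, 33.8, 49.6 and 74.6 CPM in D18N, and 109, 64.2 and 74.7 CPM in WT. Stmn2, a regulator of axonal microtubules, had 8.12 and 8.06 CPM in p212fs, above all 9 other libraries, and at most 5.10 CPM elsewhere (log2 fold change against WT 1.17 ± 0.47, edgeR adjusted p = 0.11). Map2, a dendritic microtubule protein, was at -1.37 ± 0.52 in p212fs against WT, a call in DESeq2 (adjusted p = 0.0271) and not in edgeR (adjusted p = 0.0972). Map2, Gpm6a, a neuronal membrane protein, and Nefl, the light neurofilament, were highest in Trex1-/- replicate 1, at 30.6, 6.16 and 4.55 CPM. The same library was highest for Nefm, for the RNA-binding protein genes Elavl3 and Elavl4 and for the synaptic vesicle genes Syp and Snap25. In the other 10 libraries Elavl3, Elavl4, Syp and Snap25 stayed under 1 CPM.

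**Figure D5:**
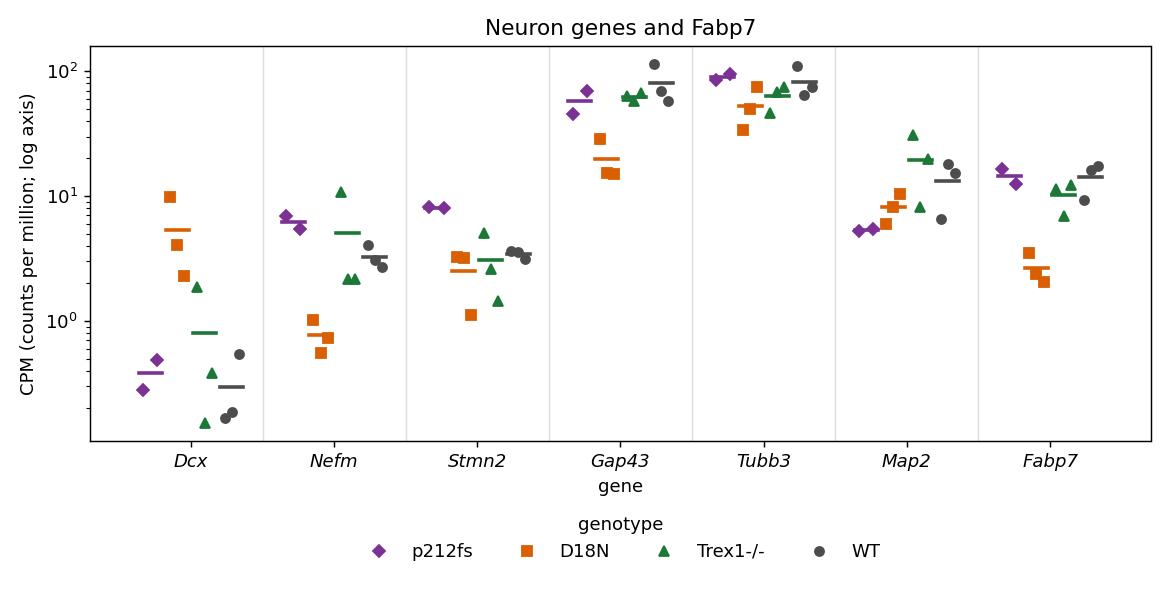
CPM on a log axis of 6 neuron genes and Fabp7 in each library, by genotype; horizontal bars are group means. Dcx is highest in the 3 D18N libraries, Fabp7, Gap43 and Nefm are lowest there, and Stmn2 is highest in the 2 p212fs libraries.

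Between Trex1-/- and WT edgeR called 0 of 31 genes, where it called 0% of all genes in either direction. An unadjusted p under 0.05 was reached by 2 of the 31 genes, 1 higher and 1 lower, and by 3862 (22.7%) of all genes. DESeq2 also called 0 of the 31, 6 of which had no adjusted p, while calling 3.2% of all genes higher and 1.78% lower. The smallest edgeR adjusted p was that of Gfap (log2 fold change -1.52 ± 0.55, adjusted p = 0.17). The median log2 fold change over the 31 genes was -0.02, against 0.01 over all genes. For Sox10 the difference was -0.08 ± 0.35, for Ngfr 0.05 ± 0.43 and for Sox2 0.05 ± 0.34.

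Set against Trex1-/-, p212fs showed 14 genes lower and 1 higher of 31 (17.1% and 15.4% of all genes), and D18N 10 lower and 0 higher (2.85% and 3.95%). In p212fs the lower genes included Erbb3 (-3.42 ± 0.37, edgeR adjusted p = 4.6e-04), Cdh19 (-2.66 ± 0.36, edgeR adjusted p = 9.2e-04), Sox2 (-3.09 ± 0.46), Sox10 (-2.62 ± 0.45) and Egr2 (-1.65 ± 0.31), all 5 of which kept their call in the 16 alternatives. The gene called higher was Stmn2 (1.36 ± 0.47, edgeR adjusted p = 0.047), a call kept in 7 of 16. In D18N the lower genes included Fabp7 (-1.91 ± 0.30, edgeR adjusted p = 0.0040), the only one to keep its call in all 16, Sox2 (-2.01 ± 0.36), Gap43 (-1.65 ± 0.32) and Sox10 (-1.5 ± 0.36, edgeR adjusted p = 0.035). The D18N count fell to 1 without D18N replicate 2, to 3 without D18N replicate 3, to 5 without Trex1-/- replicate 3 or p212fs replicate 1 or 2 and to 6 without WT replicate 2; the p212fs count fell to 7 without p212fs replicate 1 or 2.

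Set directly against D18N, p212fs showed 5 genes higher and 6 lower of 31, near the 18.6% and 20.1% of all genes. Higher in p212fs were Fabp7, Nefm (2.93 ± 0.65, edgeR adjusted p = 0.0057), Gap43 (1.48 ± 0.34, edgeR adjusted p = 0.0074), Stmn2 (1.61 ± 0.48) and Snap25, which had 6 and 13 counts in p212fs and 0, 1 and 0 in D18N. Lower in p212fs were Erbb3 (-2.34 ± 0.35, edgeR adjusted p = 9.6e-04), Egr2 (-1.63 ± 0.31, edgeR adjusted p = 0.0027), Cdh19 (-1.35 ± 0.35), Slc1a3 (-0.96 ± 0.30), Dcx (-3.85 ± 1.00) and Aqp4 (-2.37 ± 0.85, edgeR adjusted p = 0.0496), the last kept in 5 of 16 alternatives. For Sox10 (-1.12 ± 0.43, edgeR adjusted p = 0.060) and Foxd3 (-1.02 ± 0.47, edgeR adjusted p = 0.11) the difference was not called by edgeR and was called by DESeq2 (adjusted p = 0.0162 and 0.0481). Without p212fs replicate 1 or 2 the count was 5 or 4.

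Further genes of the same cell types were read from lists chosen in the same way as the 32. Of 13 myelin and Schwann lineage genes 11 were tested, and against WT 5 fell in p212fs, where 8.95% of all genes did, and 2 in D18N, near the 13.2% of all genes. L1cam, an adhesion molecule of axons and Schwann cells, had 4.76 to 5.62 CPM in p212fs, 7.81 to 15.9 CPM in D18N, 28.9 to 32.9 CPM in Trex1-/- and 16.7 to 30.2 CPM in WT (-2.25 ± 0.34 in p212fs and -1.13 ± 0.27 in D18N against WT, edgeR adjusted p = 0.0022 and 0.015). Mbp, a myelin protein, fell in p212fs by 1.40 ± 0.27 on the log2 scale, and Ncam1, a neural adhesion molecule, by 0.78 ± 0.17. Of 6 tested ErbB and neuregulin genes, Egfr rose in D18N, where 12.2% of all genes did (0.78 ± 0.21, edgeR adjusted p = 0.022). None was called in p212fs, where 8.95% of all genes fell and 8.13% rose. There Erbb2, the partner of ERBB3, was at -0.37 ± 0.13 (edgeR adjusted p = 0.079) and Nrg2 at -2.03 ± 0.83 (0.11).

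Of 14 other neuron genes 8 were tested; 2 fell in p212fs and 1 in D18N, where 8.95% and 13.2% of all genes did. Gad2, an enzyme of GABA synthesis, had 0.324 to 0.336 CPM in p212fs, 0.502 to 1.47 CPM in D18N, 3.74 to 4.14 CPM in Trex1-/- and 2.60 to 4.48 CPM in WT, and fell in both p212fs (-3.54 ± 0.52, edgeR adjusted p = 0.0021) and D18N (-2.14 ± 0.40, edgeR adjusted p = 0.0050). Map1b, a microtubule protein of growing axons, fell in p212fs (-0.92 ± 0.17), and Stmn3 was not called. Of 13 other neurogenic factors 4 were tested, and 1 fell in D18N, where 13.2% of all genes did. This was Dlx2, a forebrain and branchial crest factor (-1.66 ± 0.39, edgeR adjusted p = 0.013). Pax3 was not called against WT. Of 8 other astrocyte and progenitor genes 2 fell in p212fs (8.95% of all genes), and 3 fell and 2 rose in D18N (13.2% and 12.2%): Lfng, a modifier of Notch signalling, fell in both (-2.14 ± 0.33 and -1.56 ± 0.28), Hes1, a Notch target, fell in D18N (-1.0 ± 0.21), and Msi1, an RNA-binding protein of progenitors, rose there (0.80 ± 0.15).

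Melanocytes are another crest derivative. Of 7 melanocyte genes 5 were tested, and 3 rose in D18N against WT (12.2% of all genes). None was called in p212fs, where 8.13% of all genes rose and 8.95% fell. Kit, a receptor of melanocytes and other cells, named here after its values were seen, was at -0.84 ± 0.62 in D18N and was not called. Dct, an enzyme of melanin synthesis, had 1.27 to 2.10 CPM in D18N, against 0 to 0.166 CPM in WT (edgeR adjusted p = 0.0039), and the melanocyte factor Mitf rose by 0.86 ± 0.23. Tyrp1, a further pigment enzyme, rose as well (edgeR adjusted p = 0.024), with 25 counts over the 3 D18N libraries and 1 over the 3 WT libraries.

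Markers of other cells moved between the genotypes beside these genes. The 12 macrophage markers summed to between 476 and 635 CPM in p212fs, 58.7 and 122 CPM in D18N, 187 and 334 CPM in Trex1-/- and 761 and 979 CPM in WT. Of the 12, 4 fell in p212fs and all 12 in D18N against WT, where 8.95% and 13.2% of all genes did. The 8 meningeal markers summed to 217 to 229 CPM in p212fs, 116 to 144 CPM in D18N, 178 to 256 CPM in Trex1-/- and 161 to 173 CPM in WT, with Slc22a6 at 0 in all groups but Trex1-/-, where it had 2 counts. Endothelial and epithelial markers stayed under 34 CPM in sum in every library. The part of these cells in the neural and glial differences was not tested.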

How the data were processed

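RNA was measured in 11 MEF libraries. Per the submitters' processing notes, fastp, HISAT2 and featureCounts were used, with versions and strand setting not given in the sources used here; the authors deposited raw counts per gene. The 1654 lines without a gene name, holding 0.0804% to 0.129% of a library's reads, were left out. CPM was computed from the named-gene counts, without TMM factors. The 32 genes and all lists were chosen with earlier results of these data known. Every member is named, and of each further list the 3 genes with the smallest p in any comparison with WT, except for a result that is not reported here.

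All 11 libraries entered a single edgeR 4.0.16 quasi-likelihood fit (R 4.3.3, robust, genotype only, TMM, filterByExpr with a minimum count of 10), leaving 16990 genes. P-values were adjusted by Benjamini-Hochberg over these genes, with a threshold of 0.05. The SE beside a log2 fold change was derived from the F statistic and is approximate. Alternatives were DESeq2 1.42.0, RLE factors, no filter, a replicate block, an embryo sex term, and leaving out each library. The fit was first tested on simulated data. Sequences are from RefSeq; of the 32 genes, 21 had a window there. Totals of 16073955 to 21765536 counts limit precision for genes with few reads, and intervals cover counting error only.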

Additional observations from a re-analysis of the deposited data

How the results depend on the processing

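Of 64 calls of a member in a comparison, 22 held in all alternatives, and 0 of 1023 recomputed values changed direction. DESeq2 called 16 members between D18N and Trex1-/-, against 10 in edgeR, and 18 between p212fs and D18N, against 11. The share of all genes called under an alternative was not computed, except for DESeq2 between Trex1-/- and WT. Member counts under the alternatives, here and above, therefore do not show whether a shift was particular to the members. With no filter on low counts the D18N and Trex1-/- count was 5. Leaving out each library in turn gave 9 to 18 calls for D18N against WT, 4 to 15 for p212fs against WT, 1 to 13 for D18N against Trex1-/-, 7 to 16 for p212fs against Trex1-/-, 4 to 15 for p212fs against D18N, and 0 for Trex1-/- against WT throughout. The cause of these shifts was not tested, beyond the fewer samples in each such fit; where p212fs was left with 1 library, that library was assumed to vary like the other groups. With the replicate block the counts were 16 for D18N against WT, 12 for p212fs against WT, 0 for Trex1-/- against WT, 9 for D18N against Trex1-/-, 15 for p212fs against Trex1-/- and 13 for p212fs against D18N. Deviations of same-numbered libraries from their group means correlated between -0.209 and 0.140 over 15 pairs. For 30 pairs with different numbers the range was -0.209 to 0.234. Deviations within a genotype are tied to each other, so these pairs are not independent and do not show whether same-numbered libraries share a batch. The embryo sex term, estimable only within D18N and Trex1-/-, ended 13 of the 64 calls. Members with few reads, such as Olig2, Pax6 and Snap25, are limited by depth.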
